A study of Mus musculus with 24 samples.

Results

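The 76 genes described here encode the proteins of the cytosolic ribosome. They were chosen by symbol, as Rpl or Rps followed by a number, or Rplp0, Rplp1, Rplp2 or Rpsa, with pseudogenes left out and a count of at least 10 required in at least 4 of the 24 libraries. All 76 genes that matched by name passed the count rule, so there was none just outside it, among 24415 genes in the table. The lowest count of any of the 76 in any library was 1298 (the highest was 122347), far inside the rule. They comprise 30 genes of the small subunit and 46 of the large subunit, spread over 19 chromosomes.

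RNA sequencing counts were available for 24 mouse lens libraries on the C57BL/6 background, 4 in each of 6 groups. The conditions were LEGSKO lenses treated with buthionine sulfoximine (LEGSKO+BSO), which the study calls severely glutathione deficient, LEGSKO lenses without treatment, called mildly deficient, and untreated wild-type (WT) lenses. Each condition was sampled as cortical fiber cells (fibers) and as lens epithelia. LEGSKO is the lens knockout of Gclc, which encodes the catalytic subunit of the enzyme that starts glutathione synthesis, and BSO is an inhibitor of that enzyme. The labels give no age, sex, dose or batch, do not name the driver of the knockout, and do not tie a group's 4 libraries to different animals. The p-values below reflect only how these libraries scatter, and some of that scatter may be technical.

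Each ribosome is built from a small subunit, which reads the mRNA, and a large subunit, which joins amino acids. Ribosomal protein mRNAs in mammals belong to the TOP class, which begin with a cytosine followed by a run of pyrimidines (C or T) at the cap, and whose translation depends on mTOR signalling. The lens grows by the conversion of epithelial cells at its surface into fiber cells, which make very large amounts of crystallin protein and then lose their organelles, ribosomes included.

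The start sites of the genes were examined because the pyrimidine run is the sequence feature that the class is known for. RefSeq promoter entries (build GRCm38.p6) were available for 56 of the 76 members. A C followed by at least 5 bases that were each C or T, beginning within 5 bases of the annotated start on the transcribed strand, was found in 25 of these 56 (44.6%), against 3229 of 27025 genes in the table (11.9%). The windows below run from 10 bases before to 20 bases from the start onward, 30 bases in all, written 5′ to 3′ on the strand of the gene, with the run in capitals. The set shows the member with the largest tissue difference described below (Rpl28), the phosphorylated small subunit protein (Rps6), 4 further members with a run, and Rpl22, the member with the smallest tissue difference, at its upstream start. The set was picked to show the run, which 31 of the 56 members lack, among them Rps19 and Rps3, also high in tissue difference. Rpl35a is shown at its annotated start with a run, and its other annotated starts have none.
Rpl28, chr7:4792955-4792984, plus strand: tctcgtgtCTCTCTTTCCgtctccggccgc
Rps6, chr4:86857348-86857377, minus strand: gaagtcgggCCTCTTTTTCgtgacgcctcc
Rps27, chr3:90213629-90213658, minus strand: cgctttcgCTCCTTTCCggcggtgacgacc
Rpl35a, chr16:33056472-33056501, plus strand: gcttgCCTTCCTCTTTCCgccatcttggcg
Rps18, chr17:33955646-33955675, minus strand: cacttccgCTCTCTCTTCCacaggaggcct
Rps10, chr17:27635225-27635254, minus strand: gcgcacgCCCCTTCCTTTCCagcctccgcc
Rpl22, chr4:152324426-152324455, plus strand: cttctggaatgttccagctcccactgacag

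The Rpl28, Rps6, Rps27, Rpl35a, Rps18 and Rps10 windows each hold a run that spans the annotated start, and the Rpl22 window holds none. The 8 letters CTCTTTCC, searched on the given strand from 50 bases before to 50 bases after the start, were present in 7 of the 56 members (12.5%), against 0.529% of all genes. The letters CCGGAAG, searched on both strands of the whole window of 300 bases, were present in 23 members (41.1%) against 9.93% of all genes, and AAGATGG in 9 (16.1%) against 7.28%. These matches describe letters and do not show binding. The 25 members with a run had a median tissue difference of 3.02 on the log2 scale (mean of the 3 conditions, fibers over epithelia), the 31 with an entry and no run had 2.88, and the 20 with no entry had 3.02. The ranges of the first and second of these classes overlapped, at 2.44 to 3.94 and 1.55 to 3.66.

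Library depth was 19.3 to 46.6 M (mega) counts, and the deepest group was LEGSKO+BSO fibers (39.0 to 46.6 M). The library WT Fibers 1 stood apart: crystallin genes held 50.1% of its counts, while the other 3 of its group lay between 27.6% and 29.6%. The knockout could not be checked from these counts, since the deleted part of Gclc is not given and reads of the rest of the gene are counted. Gclc had 69.3 to 79.3 normalized counts per M (CPM) in LEGSKO+BSO fibers, 66.9 to 81.2 CPM in LEGSKO fibers and 70.4 to 135 CPM in WT fibers. In epithelia it had 63.6 to 108 CPM in LEGSKO+BSO, 44.6 to 70.5 CPM in LEGSKO and 66.6 to 95.9 CPM in WT, with a log2 change of 0.56 for LEGSKO+BSO against LEGSKO and -0.43 for LEGSKO against WT. Gclc passed no test in either tissue (edgeR quasi-likelihood test, lowest adjusted p = 0.105). The tissue labels were checked with marker lists. Of 8 fiber markers, 7 were higher in WT fibers than in WT epithelia and 1 was lower. Of 5 epithelial markers, 4 were lower, among them Pax6 at -2.02, and Sfrp1 was higher. The summed fiber markers, crystallins included, reached 140958 to 199179 per M counts in fibers and were still 43472 to 89303 per M counts in epithelia.

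Ribosomal protein mRNAs took up a far larger share of the library in fibers than in epithelia. The 76 genes together held 7.22%, 7.06%, 7.33% and 7.04% of all counts in the 4 LEGSKO+BSO fiber libraries, against 1.73%, 2.17%, 1.92% and 1.54% in LEGSKO+BSO epithelia. They held 6.72%, 7.96%, 7.06% and 7.09% in LEGSKO fibers, against 2.28%, 1.97%, 2.03% and 2.28% in LEGSKO epithelia. In WT fibers they held 4.65%, 7.34%, 7.34% and 7.13%, against 1.89%, 2.03%, 1.91% and 1.83% in WT epithelia. Every fiber library was above every epithelial library, and the 4.65% of WT Fibers 1, the library with the high crystallin share, was the lowest fiber value. The mean shares were 7.16% ± 0.140 in LEGSKO+BSO fibers, 7.21% ± 0.527 in LEGSKO fibers and 6.62% ± 1.31 in WT fibers (SD, n = 4 each). In epithelia they were 1.84% ± 0.269, 2.14% ± 0.168 and 1.91% ± 0.0826 in the same order of conditions (SD, n = 4 each), and the ranges of the 3 conditions overlapped in both tissues.

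Part of each share is set by how much of the library is crystallin. As a percent of counts outside crystallin genes, WT Fibers 1 came to 9.33%, close to the 9.85% to 10.4% of the other WT fiber libraries. On that base the means were 10.2% ± 0.217 in LEGSKO+BSO fibers, 10.6% ± 1.09 in LEGSKO fibers and 9.96% ± 0.481 in WT fibers. The epithelial means were 2.04% ± 0.357, 2.40% ± 0.251 and 2.19% ± 0.108 in the same order (SD, n = 4 each). The balance of the subunits differed by small amounts. Small subunit counts per large subunit count averaged 0.648 ± 0.00413, 0.640 ± 0.00562 and 0.633 ± 0.00936 in LEGSKO+BSO, LEGSKO and WT fibers, and 0.626 ± 0.00568, 0.622 ± 0.00438 and 0.614 ± 0.00517 in the matching epithelia (SD, n = 4 each). Every LEGSKO+BSO fiber library (0.641 to 0.650) was above every WT fiber library (0.619 to 0.639), while the epithelial libraries of these conditions overlapped. WT Fibers 1 had the lowest fiber ratio, 0.619, inside the epithelial range. All other fiber libraries, from 0.634 up, were above the highest epithelial library, at 0.632.

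**Figure D1:**
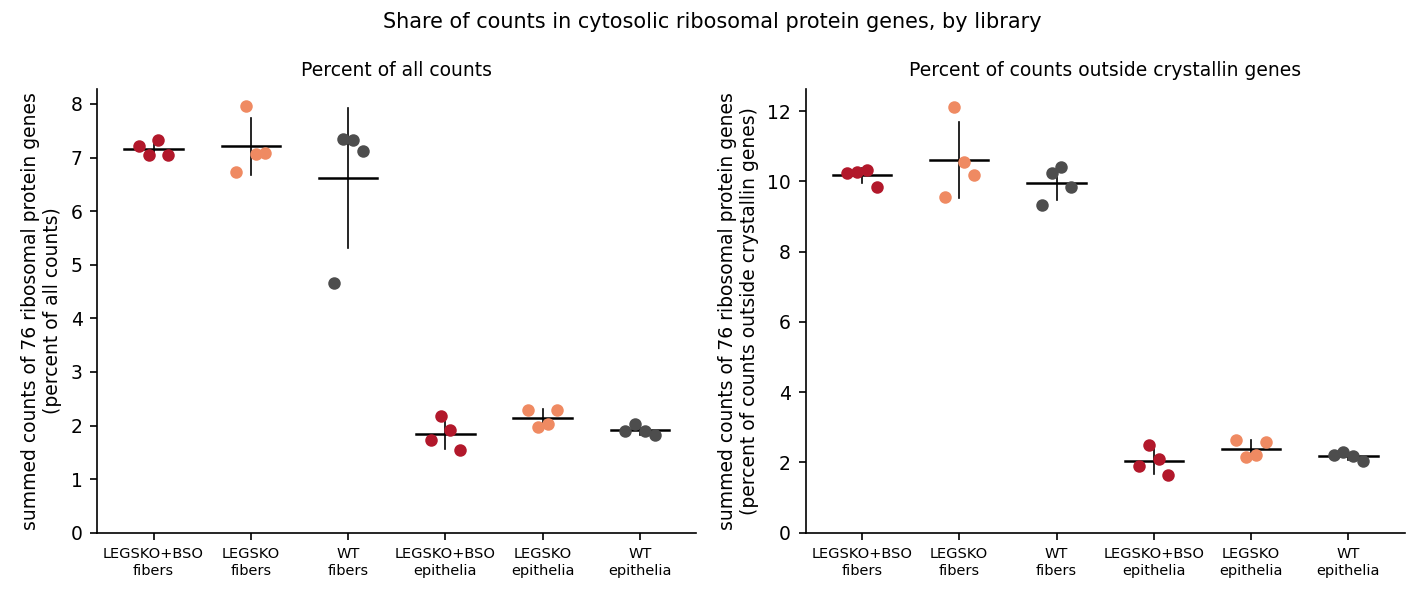
Summed counts of the 76 ribosomal protein genes in each library, as percent of all counts (left) and as percent of counts outside crystallin genes (right), for the 6 groups. Points are libraries, horizontal lines are means and vertical lines are ± 1 SD (n = 4). The fiber libraries lie at 4.65% to 7.96% of all counts and the epithelial libraries at 1.54% to 2.28%, and WT Fibers 1 rejoins the other WT fiber libraries on the right.

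The study compared each tissue only with itself, so the contrast of fibers with epithelia is an addition made here. It was fitted on all 24 libraries, and any batch that went with tissue cannot be told apart from tissue. In a bulk sample, moreover, fewer cells of a type and less RNA per cell cannot be told apart. All 76 members were higher in fibers in each of the 3 conditions (edgeR quasi-likelihood test, adjusted p no higher than 9.97e-13 for any member in any condition). The share of all 15560 genes tested that was higher in fibers was 38.1% in LEGSKO+BSO, 36.8% in LEGSKO and 37% in WT. In each condition the 4 fiber libraries of all 76 members lay above the 4 epithelial libraries, against 37.4%, 34.9% and 33.3% of all genes in the same order. The median member difference was 3.01 on the log2 scale in LEGSKO+BSO (8.08-fold), 2.87 in LEGSKO (7.33-fold) and 3.00 in WT (8.03-fold), while the median of all genes was -0.09, -0.08 and -0.09. The small subunit median was 3.02, 2.88 and 3.05 and the large subunit median 3.01, 2.87 and 3.00 in the same order, so the subunits shifted together.

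The size of this difference depends on what the libraries are scaled to. With plain total counts in place of TMM scaling, the median of all genes was -1.15, -1.18 and -1.25 in LEGSKO+BSO, LEGSKO and WT, and the member median was 1.96 (3.88-fold), 1.76 (3.39-fold) and 1.83 (3.57-fold). All 76 members still passed as higher in each condition, the smallest difference being 0.34 in LEGSKO and 0.35 in WT. Of the genes called between tissues, the share that was higher in fibers was 48.3%, 48.6% and 48.4% with TMM scaling and 17.2%, 15.8% and 14.7% with total counts. Relative to the median of all genes, the members stood 3.11, 2.96 and 3.09 higher with TMM scaling and 3.11, 2.95 and 3.08 higher with total counts. A change of scaling moves all genes of a contrast by nearly the same amount. These relative values could therefore hardly differ, and their likeness is no separate test. Without WT Fibers 1, the WT median was 2.97 and all 76 members remained higher.

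Among the members, Rpl28, a large subunit protein (Entrez 19943, chr7:4792965-4794547, GRCm38), had the largest difference. Rpl28 measured 2475, 2409.7, 2517 and 2263 CPM in LEGSKO+BSO fibers, against 121, 182, 135 and 125 CPM in LEGSKO+BSO epithelia. It measured 2030.2, 2911, 2425 and 2304 CPM in LEGSKO fibers, against 187, 152, 149 and 197 CPM in LEGSKO epithelia. In WT it measured 2400.2, 2356, 2436 and 2189.6 CPM in fibers, against 145, 174, 165 and 139 CPM in epithelia. No fiber library came near the epithelial ones in any condition, and the lowest and the highest fiber value both came from LEGSKO. The log2 difference of Rpl28 was 4.10 ± 0.14 in LEGSKO+BSO, 3.82 ± 0.14 in LEGSKO and 3.91 ± 0.14 in WT (SE, edgeR adjusted p = 4.68e-18, 1.32e-17 and 9.42e-18).

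Rps19, a small subunit protein best known because mutations in its human counterpart cause Diamond-Blackfan anaemia, followed, with log2 differences of 3.77, 3.63 and 3.57 in LEGSKO+BSO, LEGSKO and WT. Rps14, of the small subunit platform, had 3.60, 3.40 and 3.43. Rps3, which lines the mRNA entry channel, had 3.52, 3.39 and 3.52, and Rpl34, of the large subunit, had 3.35, 3.28 and 3.52. Members were not tested against each other.

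Members with well known roles lay between these ends. Rps6, the small subunit protein phosphorylated by S6 kinase (Entrez 20104, chr4:86854099-86857367), measured 1951, 1998, 2044 and 1817 CPM in LEGSKO+BSO fibers, against 259, 346, 277 and 227 CPM in LEGSKO+BSO epithelia. In WT it measured 2115, 2036, 2030.3 and 1848 CPM in fibers, against 289, 322, 294 and 278 CPM in epithelia, and the tissues did not overlap in either condition. The Rps6 log2 difference was 2.81, 2.74 and 2.76 in LEGSKO+BSO, LEGSKO and WT.

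Rplp0, the base of the stalk that recruits translation factors (Entrez 11837, chr5:115559467-115563729), measured 3239.9, 3375, 3397 and 3077 CPM in LEGSKO+BSO fibers, against 401, 549, 437 and 331 CPM in LEGSKO+BSO epithelia. In WT it measured 3390.4, 3232, 3243 and 3034 CPM in fibers, against 449, 479, 459 and 416 CPM in epithelia. The tissues did not overlap, and in mean CPM over all fiber libraries Rplp0 came behind Rps3 alone. Its log2 difference was 2.93, 2.73 and 2.84 in LEGSKO+BSO, LEGSKO and WT.

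Rpl10, which joins the large subunit late in its assembly, had log2 differences of 3.30, 3.23 and 3.26 in LEGSKO+BSO, LEGSKO and WT. Rpsa, also known as the laminin receptor precursor, had 2.96, 2.68 and 2.80, and Rps27, a zinc-binding small subunit protein, had 3.28, 3.14 and 3.22. The very short large subunit proteins Rpl39 and Rpl41 were no exception. Rpl39, at the polypeptide exit tunnel, had 2.74, 2.67 and 2.84, and Rpl41 had 2.93, 2.77 and 3.01. Rpl36a, also of the large subunit, had 2.87, 2.75 and 2.94. Rps4x, the X-linked form of a small subunit protein, had 2.53, 2.43 and 2.50, and Rpl3, which lies near the peptidyl transferase centre, had 2.38, 2.28 and 2.38. Rpl10a, of the large subunit stalk that contacts the leaving tRNA, had 2.36, 2.31 and 2.32, and Rps9 had 2.55, 2.38 and 2.39. Rpl32 had 2.56, 2.34 and 2.42.

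Rpl22, an RNA-binding protein of the large subunit surface that ribosomes can do without (Entrez 19934, chr4:152324436-152334082), had the smallest difference in each condition. Rpl22 measured 380.2, 395, 379 and 379.9 CPM in LEGSKO+BSO fibers, against 124, 139, 124 and 94.9 CPM in LEGSKO+BSO epithelia. It measured 359.8, 486, 443 and 392 CPM in LEGSKO fibers, against 166, 145, 147 and 159 CPM in LEGSKO epithelia. In WT it measured 440.3, 384, 382 and 379 CPM in fibers, against 143, 138, 129 and 137 CPM in epithelia. The tissues did not overlap, and the gap between them was much narrower than for Rpl28. The Rpl22 log2 difference was 1.67 ± 0.10, 1.45 ± 0.10 and 1.53 ± 0.10 in LEGSKO+BSO, LEGSKO and WT (SE, edgeR adjusted p = 5.83e-14, 9.97e-13 and 3.49e-13), and averaged over conditions Rpl22 was 2.93-fold higher in fibers, against 15.4-fold for Rpl28.

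**Figure D2:**
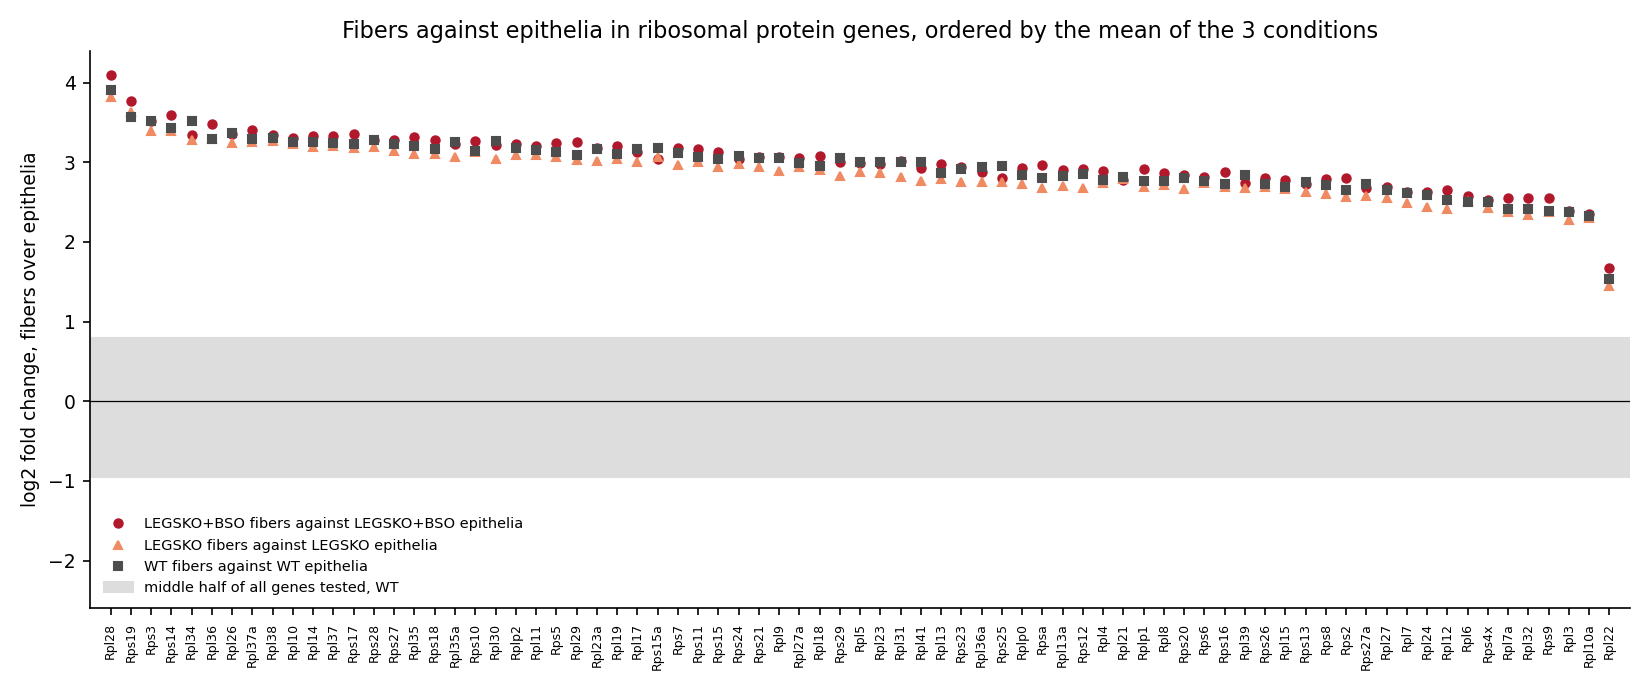
Log2 fold change of fibers over epithelia (vertical axis, TMM scaling) for the ribosomal protein genes, ordered by the mean of the 3 conditions. Circles are LEGSKO+BSO, triangles LEGSKO and squares WT, and the grey band holds the middle 50% of all genes tested in WT. Every gene plotted lies above the band, from Rpl28 at 3.82 to 4.10 down to Rpl22 at 1.45 to 1.67.

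The order of the members was much the same in the 3 conditions. Across the 76 genes, Pearson's r was 0.985 between LEGSKO+BSO and LEGSKO, 0.971 between LEGSKO+BSO and WT and 0.983 between LEGSKO and WT, and Spearman's rho was 0.978, 0.967 and 0.981. These contrasts share no library but share the scaling and the estimate of spread, and genes are not independent replicates. The mean difference was weakly related to transcript length (r = -0.17 with the shortest and -0.23 with the longest annotated transcript tagged as principal) and to the log2 level in epithelia (r = -0.24, n = 76 genes each, as descriptions).

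The paralog of Rpl22, Rpl22l1, whose protein can take its place in the ribosome, differed more strongly. Rpl22l1 measured 139, 120.3, 153 and 124 CPM in LEGSKO+BSO fibers, against 15.1, 18.2, 17.4 and 10.1 CPM in LEGSKO+BSO epithelia. It measured 144, 189, 154 and 159 CPM in LEGSKO fibers, against 20.6, 19.1, 17.4 and 21.4 CPM in LEGSKO epithelia. In WT it measured 184, 153.5, 159 and 139 CPM in fibers, against 17.96, 18.7, 17.1 and 15.6 CPM in epithelia, a log2 difference of 3.20 ± 0.14 (SE, edgeR adjusted p = 2.58e-16). The fiber libraries of all 3 conditions lay far above the epithelial ones.

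The pair therefore stood in a different proportion in the 2 tissues. Per 100 Rpl22 counts there were 35.01 ± 4.36, 38.6 ± 2.59 and 40.02 ± 2.39 Rpl22l1 counts in LEGSKO+BSO, LEGSKO and WT fibers, against 12.5 ± 1.44, 12.7 ± 0.736 and 12.7 ± 0.993 in the matching epithelia (SD, n = 4 each). The lowest fiber library, at 30.5, was above the highest epithelial library, at 14.1. A ratio of counts of the same pair of genes does not depend on library scaling. Other pairs behaved differently. Rpl7l1 counts per 100 Rpl7 counts averaged 1.79, 1.59 and 1.48 in LEGSKO+BSO, LEGSKO and WT fibers, against 12.7, 10.9 and 11.5 in the matching epithelia, and Rpl7l1 itself was lower in WT fibers (log2 -0.34). Rps27l counts per 100 Rps27 counts averaged 9.81, 8.94 and 8.69 in fibers, against 18.4, 17.4 and 18.4 in epithelia. Rpl36al counts per 100 Rpl36a counts were alike in the tissues, at 59.4, 53.4 and 54.5 in fibers, against 56.3, 52.9 and 60.0 in epithelia.

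**Figure D3:**
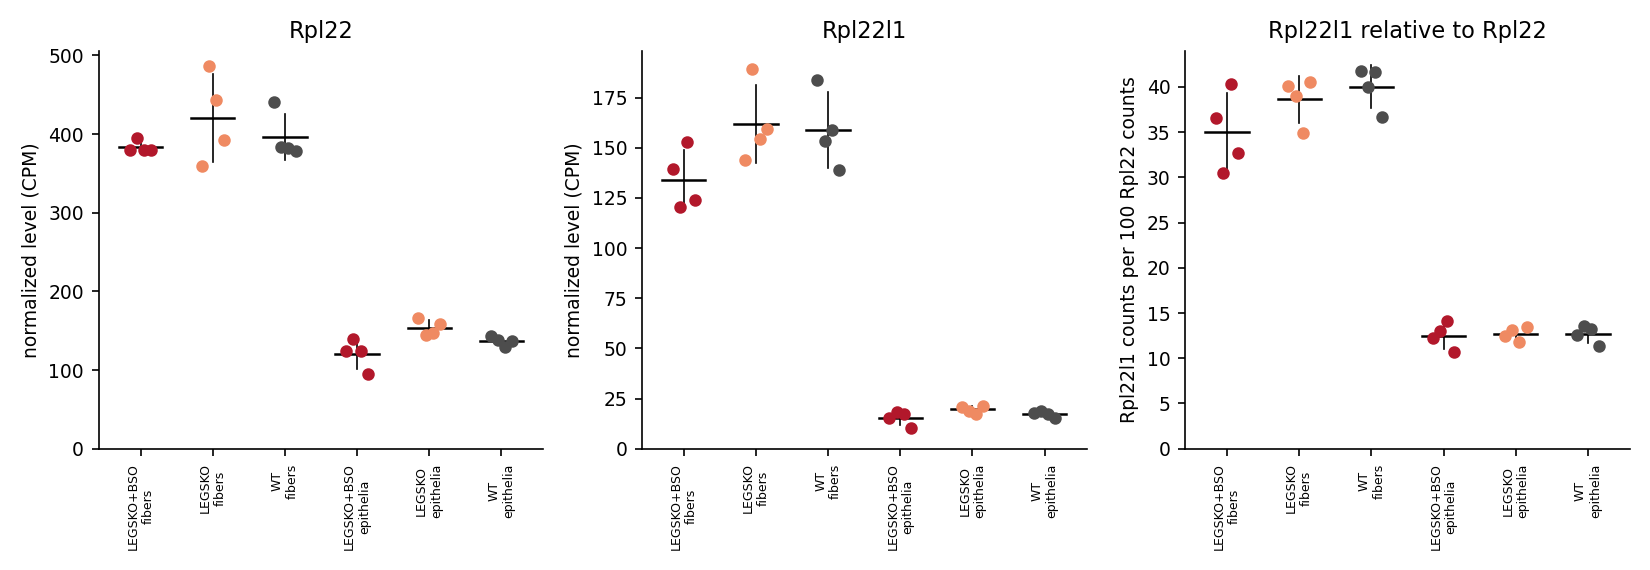
Normalized level in CPM of Rpl22 (left) and Rpl22l1 (middle), and Rpl22l1 counts per 100 Rpl22 counts (right), in each library of the 6 groups. Points are libraries, horizontal lines means and vertical lines ± 1 SD (n = 4). The ratio lies at 30.5 to 41.8 in fibers and at 10.7 to 14.1 in epithelia.

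Levels between genes can be compared only per transcript length, and the length used matters for some of them. Lengths were the shortest and the longest of the transcripts tagged as principal in the annotation, which are the same for many members. Per kb of each, Rps14 ranked highest of the 76 in fibers (3267 and 2484 CPM per kb, scaled within fibers). Rplp1, an acidic stalk protein with a single length, ranked highest in epithelia (721 CPM per kb, scaled within epithelia). Rpl41 and Rps12 were in the top 5 in both tissues with either length. Rps20 was at the low end, at 135 CPM per kb in fibers and 43.2 CPM per kb in epithelia, on its only length, 3706 bases. By CPM without length it ranked 61 of the 76 in fibers and 55 in epithelia, so its low place rests on that length. Rpl22 shows the limit of such a ranking: it was at 572 or 132 CPM per kb in fibers depending on the transcript. By CPM without length, the highest members were Rps3, Rplp0 and Rps14 in fibers and Rplp0, Rpl7 and Rpl4 in epithelia. The lowest were Rpl22, Rps28 and Rpl36a in fibers and Rps28, Rpl36 and Rpl36a in epithelia.

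Some members may share reads with near-identical copies, which leaves their own counts uncertain, since the table holds counts alone. Rps27rt carried 99.1% as many counts as Rps27 in the median library and Rpl34-ps1 99.9% as many as Rpl34, figures at which the deposited counting cannot be told to separate the copies. For Rpl14-ps1, Rpl37rt, Rpl31-ps12, Rplp2-ps1 and Rps23rg1 the figures were 83.3%, 74.3%, 71.8%, 68.5% and 56.9% of Rpl14, Rpl37, Rpl31, Rplp2 and Rps23. For Rps15a the 2 copies came to 39.0% and 29.0%, and Rpl32l and Rps19-ps3 came to 18.2% of Rpl32 and 15.8% of Rps19.

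Genes around the ribosome did not all differ between the tissues in the same way. Of all 15560 genes tested, 37% were higher and 39.4% were lower in WT fibers than in WT epithelia, the shares against which the counts below are to be read. Of 13 tested paralogs and ribosomal proteins with other names, 12 were higher and 1 was lower in WT fibers than in WT epithelia, with a median of 2.73. Among them Rack1, a scaffold on the small subunit, was at 2.55. The list includes Rps27rt and Rpl37rt, which carried 99.1% and 74.3% as many counts as the members Rps27 and Rpl37. These copies may share reads with the members, so they are not separate evidence. The list also includes Rps19bp1, a partner of Rps19. A further 3 paralogs (Rpl3l, Rpl10l and Rpl39l) had 0 to 12 counts per library and were not tested. Of 21 other TOP mRNAs and elongation factors, 18 were higher and 2 lower, with a median of 2.27. The smallest adjusted p among them belonged to Eif3h, an initiation factor subunit, at 3.01, and Eef1d, an elongation factor subunit, at 2.99. Hnrnpa1, an RNA-binding protein, was lower at -0.55 and Npm1, a nucleolar chaperone, at -0.39, and Vim, an intermediate filament protein, had 0.18 and did not pass. Of 78 mitochondrial ribosomal proteins, 71 were higher and 2 lower, with a median of 1.26, led by Mrpl52 at 2.89 and Mrps18a at 2.70.

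The machinery that makes and controls ribosomes was closer to even. Of 55 ribosome biogenesis genes, 32 were higher and 8 lower in WT fibers, with a median of 0.44. Emg1, an rRNA methyltransferase, was at 2.22 and Polr1d, a shared polymerase subunit, at 1.76, while Polr1a, the largest subunit of RNA polymerase I, was at -1.15. Of 28 mTOR and translation control genes, 14 were higher and 8 lower, with a median of 0.30. Larp1b, a relative of the TOP-binding protein Larp1, was at 4.07 and the mTOR inhibitor Akt1s1 at 1.68, while Mtor itself was at -2.48 and the transcription factor Myc at -3.74. Of 15 ribosome quality control genes, 7 were higher and 4 lower, with a median of 0.14, and Edf1, a sensor of collided ribosomes, was at 1.96 and Ascc2, a subunit of the complex that splits them, at 1.17.

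Total-count scaling shifts the whole scale down: in WT it takes the median of all genes to -1.25, against -0.09 with TMM scaling, and the called shares of all genes to 12.7% higher and 73.7% lower. On that lowered scale the WT medians of the last 3 lists lie below 0, at -0.72 for biogenesis (8 higher, 43 lower), -0.86 for mTOR and translation control (2 higher, 21 lower) and -1.04 for quality control (1 higher, 11 lower). Mitochondrial ribosomal proteins come to 0.09 with 27 higher and 27 lower, the paralogs to 1.56 with 9 higher and 2 lower, and the TOP list to 1.09 with 16 higher and 4 lower. Relative to the median of all genes the lists could hardly move, since a change of scaling shifts all genes by nearly the same amount. The relative values that follow are a description and no separate test. The biogenesis list stood 0.53 higher with TMM scaling and 0.54 with total counts, mTOR and translation control 0.39 and 0.40, and quality control 0.22 and 0.21. In the same way mitochondrial ribosomal proteins stood 1.35 and 1.34 higher, paralogs 2.82 and 2.81, and TOP mRNAs 2.36 and 2.34. Without WT Fibers 1 and with TMM scaling, the WT medians were 2.70 for paralogs, 2.24 for TOP mRNAs, 1.18 for mitochondrial proteins and 0.40, 0.27 and 0.13 for the last 3 lists. In LEGSKO+BSO the medians were 2.82, 2.47, 1.45, 0.46, 0.42 and 0.22 and in LEGSKO 2.57, 2.34, 1.22, 0.47, 0.34 and 0.22, in the order paralogs, TOP mRNAs, mitochondrial proteins, biogenesis, mTOR and quality control.

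**Figure D4:**
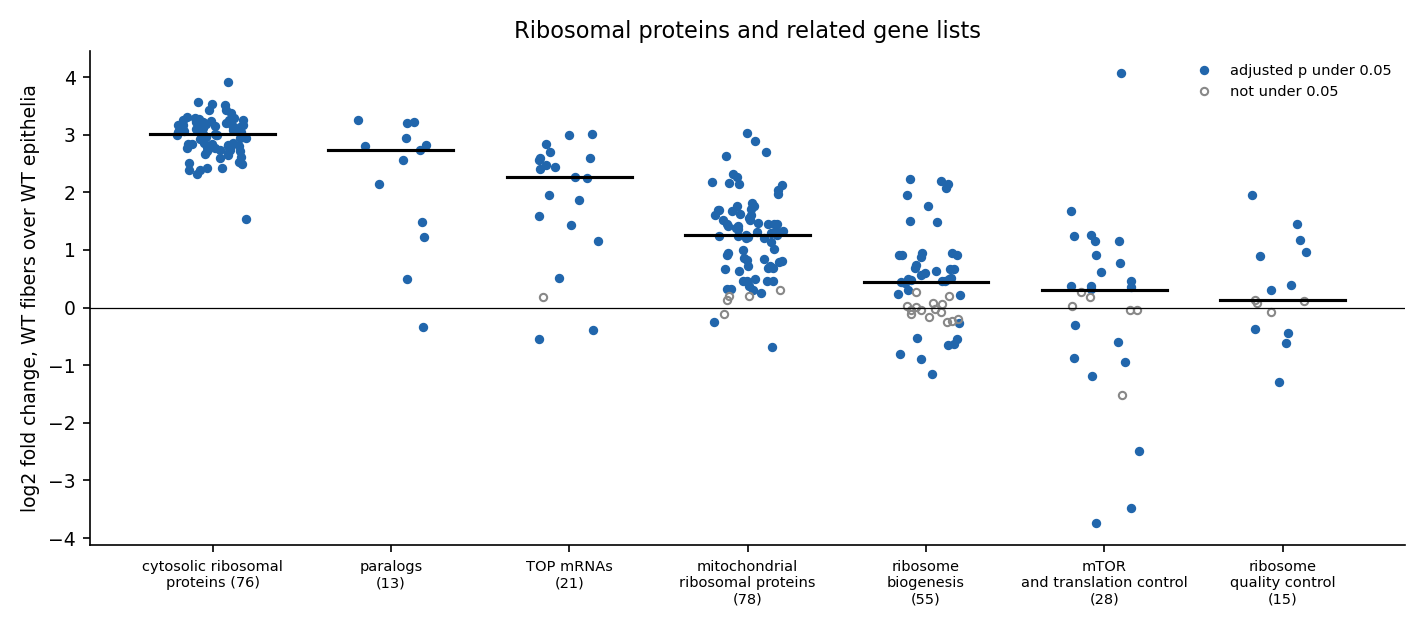
Log2 fold change of WT fibers over WT epithelia (vertical axis, TMM scaling) for the 76 ribosomal protein genes and 6 related lists, with the number tested in brackets. Filled points have an adjusted p under 0.05, open points do not, and horizontal lines are medians. The medians step down from 3.00 for the cytosolic ribosomal proteins to 0.14 for ribosome quality control, while the median of all genes is -0.09. With total-count scaling the whole scale shifts down, and the median of all genes is -1.25.

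Markers of other cells also moved with tissue. Of the markers tested, all 6 retinal, all 5 pigmented iris and ciliary body, both corneal and all 4 red blood cell genes were lower in WT fibers than in WT epithelia. Summed retinal markers ranged over 2.10 to 34.9 per M counts in fibers, against 14.7 to 371 per M counts in epithelia. Summed red blood cell markers ranged over 0.0446 to 2.08 per M counts in fibers, against 1.82 to 20.6 per M counts in epithelia. Summed corneal markers ranged over 2.51 to 8.40 per M counts against 91.5 to 217 per M counts, mostly Krt15 and Krt19 in epithelia. Of 3 muscle and stromal markers tested, Acta2 was higher (2.93) and the others were lower. The sum of that list ranged over 361 to 759 per M counts in fibers, against 131 to 303 per M counts in epithelia. In fibers the sum was nearly all Acta2, at 9988 to 33265 counts per library. Col1a2 had at most 40 counts there, Col1a1 4, Des 3 and Col3a1 1, so the sum does not show more of these cells in fibers. Of 3 blood vessel markers Pecam1 was higher (2.48) and Kdr lower, and of 4 immune markers none was higher and 1 was lower. Krt5, Kdr and Lum were at 0 in all 12 fiber libraries and Slc4a1 at 0 in all 12 epithelial libraries. The part of these cells in the difference of the ribosomal proteins was not tested.

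Between conditions within a tissue, the comparison that the study set out to make, no member passed the test. The count was 0 of 76 in each of the 6 comparisons (edgeR quasi-likelihood test, Benjamini-Hochberg adjusted over 13436 genes in fibers and 15089 in epithelia). The share of all genes called in either direction was 5.52% for LEGSKO+BSO against WT fibers, 0.0298% for LEGSKO+BSO against LEGSKO fibers and 1.64% for LEGSKO against WT fibers. It was 1.17% for LEGSKO+BSO against WT epithelia, 0.722% for LEGSKO+BSO against LEGSKO epithelia and 0.842% for LEGSKO against WT epithelia. The 3 comparisons of a tissue share libraries, so their values are set side by side and are not independent.

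In fibers, the median member change was -0.05 on the log2 scale for LEGSKO+BSO against WT, -0.10 for LEGSKO+BSO against LEGSKO and 0.05 for LEGSKO against WT, while the medians of all genes were -0.01, -0.004 and -0.01. Single libraries moved these medians. Without LEGSKO Fibers 1, LEGSKO+BSO against LEGSKO gave -0.16 and LEGSKO against WT 0.12, and without LEGSKO Fibers 2 they gave 0.003 and -0.04. LEGSKO+BSO against WT ranged from -0.07 without WT Fibers 4 to -0.01 without LEGSKO+BSO Fibers 4. Rpl34 had the smallest p of LEGSKO+BSO against WT. It measured 437, 455, 452 and 409 CPM in LEGSKO+BSO fibers, 416, 578, 482 and 465 CPM in LEGSKO fibers and 548, 520.5, 552 and 504 CPM in WT fibers, scaled within fibers. Each LEGSKO+BSO library was below each WT library, and the LEGSKO libraries overlapped both. The change of Rpl34 was -0.28 ± 0.09 (SE, 95% interval -0.47 to -0.09, edgeR adjusted p = 0.0859), and the Rpl34 counts are among those that a copy carries as well.

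Rpl39 measured 371, 359.5, 352 and 339 CPM in LEGSKO+BSO fibers, 369, 538, 457 and 407 CPM in LEGSKO fibers and 551, 409, 419 and 392 CPM in WT fibers. The WT value of 551 CPM came from WT Fibers 1, and the LEGSKO+BSO libraries were all below the WT ones. The change of Rpl39 against WT was -0.32 ± 0.12 (SE, edgeR adjusted p = 0.135), and without WT Fibers 1 it was -0.20 (adjusted p = 0.230). Rpl30, an RNA-binding large subunit protein, followed with -0.22 ± 0.08 (adjusted p = 0.141). In 12 of the 76 members every LEGSKO+BSO library lay below every WT library (Rpl5, Rpl9, Rpl11, Rpl17, Rpl23, Rpl23a, Rpl30, Rpl34, Rpl35a, Rpl39, Rps15a and Rps27a), and this held for 6.8% of all genes. Of the 76, 4 had an unadjusted p under 0.05, against 21.5% of all genes.

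LEGSKO+BSO against LEGSKO fibers gave its smallest p for Rpl39 (-0.32, edgeR adjusted p = 0.363), Rps15a (-0.24, adjusted p = 0.381) and Rpl36a (-0.19, adjusted p = 0.479), with 2 members under an unadjusted p of 0.05, against 10.5% of all genes. LEGSKO against WT fibers gave Rps9 (0.19, adjusted p = 0.325), Rpl7a (0.16, adjusted p = 0.426) and Rps4x (0.16, adjusted p = 0.442), with 1 member under 0.05, against 15% of all genes. In neither comparison did the groups separate without overlap for any member. Of all genes, the LEGSKO+BSO libraries were all above the LEGSKO ones for 4.78% and all below them for 4.21%, and the LEGSKO libraries were all above the WT ones for 4.54% and all below them for 4.14%. The spread inside LEGSKO fibers was wide: the median coefficient of variation of a member was 14.1% there, against 4.39% in LEGSKO+BSO fibers and 5.25% in WT fibers.

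In epithelia, the median member change was -0.10 for LEGSKO+BSO against WT, -0.24 for LEGSKO+BSO against LEGSKO and 0.13 for LEGSKO against WT, while the medians of all genes were -0.01, 0.001 and -0.006. Without LEGSKO+BSO Epithelia 2 the first and second of these were -0.21 and -0.35, and without LEGSKO+BSO Epithelia 4 they were -0.01 and -0.15. LEGSKO against WT ranged from 0.08 without LEGSKO Epithelia 1 to 0.18 without LEGSKO Epithelia 2. With all libraries, all 76 members were on the negative side in LEGSKO+BSO against LEGSKO and all 76 on the positive side in LEGSKO against WT, without any passing the test. An unadjusted p under 0.05 was given by 35 members in LEGSKO+BSO against LEGSKO, against 19.3% of all genes, by 2 in LEGSKO against WT, against 14.1%, and by 0 in LEGSKO+BSO against WT, against 14.8%. Rpl22 measured 184, 206, 185 and 139.9 CPM in LEGSKO+BSO epithelia, 242, 212, 217 and 229 CPM in LEGSKO epithelia and 213.5, 203, 189 and 204 CPM in WT epithelia, scaled within epithelia. Its LEGSKO+BSO libraries were all below its LEGSKO libraries, and it was the only member for which this held, against 6.95% of all genes. The change of Rpl22 was -0.33 ± 0.10 (SE, 95% interval -0.54 to -0.13, edgeR adjusted p = 0.104).

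Rpl24, of the large subunit, had -0.27 (edgeR adjusted p = 0.143) and Rps12, of the small subunit beak, had -0.29 (adjusted p = 0.147) in the same comparison. Rps12 measured 300.2, 383, 340.5 and 259 CPM in LEGSKO+BSO epithelia, 410.5, 368, 375 and 414 CPM in LEGSKO epithelia and 296, 347, 320.4 and 319 CPM in WT epithelia. Its LEGSKO libraries were all above its WT libraries, and they overlapped the LEGSKO+BSO ones at 383 CPM. LEGSKO against WT gave Rps12 0.29 ± 0.10 (SE, 95% interval 0.08 to 0.50, adjusted p = 0.193), Rps25 0.24 (adjusted p = 0.229) and Rpl36a 0.25 (adjusted p = 0.358). In 7 members every LEGSKO library was above every WT library (Rpl7, Rpl7a, Rpl36a, Rps4x, Rps12, Rps23 and Rps25), against 4.77% of all genes. LEGSKO+BSO against WT gave Rpl22 (-0.18, adjusted p = 0.405), Rpl39 (-0.21, adjusted p = 0.456) and Rpl11 (-0.21, adjusted p = 0.460), with no member free of overlap, against 3.99% of all genes that were higher and 3.64% that were lower without overlap.

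**Figure D5:**
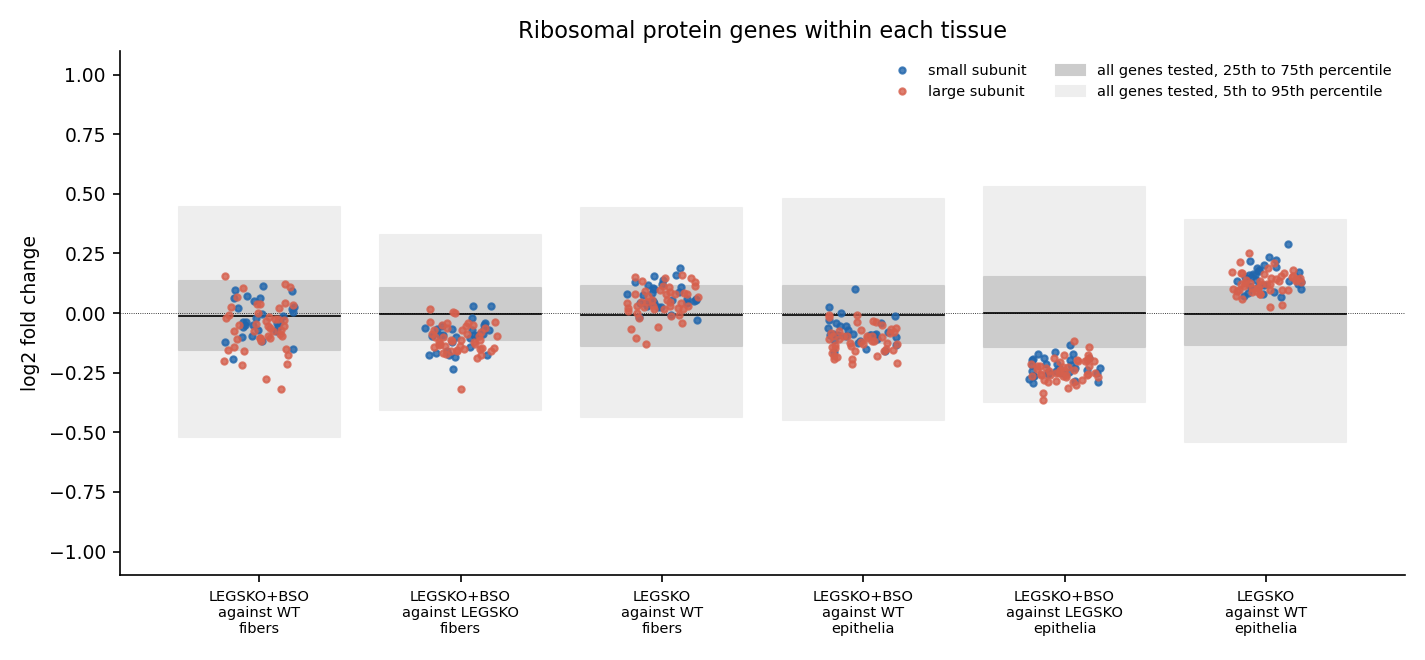
Log2 fold change (vertical axis) of the 76 ribosomal protein genes in the 6 comparisons between conditions within a tissue, small subunit in blue and large subunit in red. Grey boxes give the middle 50% and the middle 90% of all genes tested and the black line their median. No member passed the test, and the members lie close together, around -0.24 in LEGSKO+BSO against LEGSKO epithelia and around 0.13 in LEGSKO against WT epithelia.

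The members moved together from library to library. In the library LEGSKO+BSO Epithelia 2 all 76 members were above their group mean, by a median of 0.32 on the log2 scale, and in LEGSKO+BSO Epithelia 4 all 76 were below it (median -0.29). In LEGSKO epithelia, 76 and 75 members were above their group mean in libraries 1 and 4, and 0 and 1 were above it in libraries 2 and 3. In fibers, all 76 were above it in LEGSKO Fibers 2 (median 0.27) and none in LEGSKO Fibers 1 (median -0.20). The median coefficient of variation of a member was 18.1% in LEGSKO+BSO epithelia, 9.98% in LEGSKO epithelia and 5.44% in WT epithelia. The members that varied most within groups were Rpl41 (15.5%), Rpl32 (12.8%) and Rpl39 (12.7%), each a mean over the 6 groups. In epithelia several members varied more than Rpl41, led by Rps19 (14.4%) and Rpl28 (14.3%). Rpl41 averaged 12.9% there and 18.1% in fibers. WT Fibers 1 widened its fiber value, with 30473 Rpl41 counts at a TMM factor of 0.65, against 30622 at 1.06 in WT Fibers 2.

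The LEGSKO+BSO epithelial library with the high members also held more crystallin. Crystallin genes made up 9.14%, 13.2%, 9.03% and 7.05% of counts in LEGSKO+BSO epithelia 1 to 4, and members 1.73%, 2.17%, 1.92% and 1.54%. Libraries 1 and 3 of that group had nearly the same crystallin share, and yet 1 and 73 of the 76 members were above the group mean. In LEGSKO epithelia the crystallin shares were 13.8%, 8.44%, 8.70% and 11.4%, again highest in the libraries whose members were above the group mean. In WT epithelia they were 14.7%, 12.3%, 12.2% and 10.8%, and the library with the most crystallin had 1.89% members, near the middle of its group. Summed fiber markers covered 43472 to 81865 per M counts in LEGSKO+BSO epithelia, 50398 to 83001 per M counts in LEGSKO epithelia and 69448 to 89303 per M counts in WT epithelia. Of the 8 fiber markers, 1 was called in LEGSKO+BSO against LEGSKO epithelia and none in the other epithelial comparisons. The part of fiber RNA in the joint movement of the members was not tested. Leaving out LEGSKO+BSO Epithelia 2 took the count of lower members in LEGSKO+BSO against LEGSKO epithelia to 24, with log2 changes of -0.49 to -0.34 and a lowest adjusted p of 0.0358 (edgeR). In that fit 1.81% of all 15278 genes tested were called lower (276 genes), so the setting added calls among other genes too.

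Markers of other cells moved between conditions as well, and their part in the values above was not tested. In epithelia, both corneal markers tested were higher in LEGSKO than in WT, Krt15 by 1.35 (edgeR adjusted p = 0.00364) and Krt19 by 0.73 (adjusted p = 0.0101). The sum of the corneal list ranged over 192 to 217 per M counts in LEGSKO, against 91.5 to 139 per M counts in WT. That sum was mostly Krt15 and Krt19. The corneal markers Krt12, Krt5 and Krt14 were near 0, with at most 28, 8 and 13 counts in any epithelial library. LEGSKO epithelia also had more Col1a2, a collagen of stroma (2.54, adjusted p = 0.0237), and Trpm1, of pigment cells (0.32, adjusted p = 0.028), and less Sfrp1 (-0.42, adjusted p = 0.022) than WT epithelia. In LEGSKO+BSO against WT epithelia, Krt15 (1.14, adjusted p = 0.00852), Krt19 (0.56, adjusted p = 0.0421), Col1a2 (2.20, adjusted p = 0.043) and the epithelial marker Foxe3 (0.98, adjusted p = 0.00765) were higher and Pdgfra (-0.86, adjusted p = 0.0391) was lower. In LEGSKO+BSO against LEGSKO epithelia, Foxe3 (1.00, adjusted p = 0.0165) and Dct, of pigment cells (2.61, adjusted p = 0.0165), were higher. Dct had 8 to 210 counts per epithelial library. The summed pigment list ranged over 155 to 177 per M counts in LEGSKO+BSO, 147 to 175 in LEGSKO and 133 to 145 in WT epithelia. The sum thus overlapped between LEGSKO+BSO and LEGSKO and does not show a rise of the whole list there.

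In fibers, the macrophage gene Lyz2 was higher in LEGSKO+BSO than in WT (2.75, edgeR adjusted p = 6.94e-05) and than in LEGSKO (2.74, adjusted p = 0.000383). Summed immune markers, Lyz2 included, ranged over 3.61 to 5.36 per M counts in LEGSKO+BSO fibers, 0.666 to 0.955 in LEGSKO fibers and 0.759 to 1.27 in WT fibers. The highest count in any fiber library was 163 for Lyz2, 29 for Laptm5 and 24 for Cd68. It was 7 or less for Ptprc, Csf1r, Aif1, Cd52 and Tyrobp, so the sum does not show a rise of the whole list. Acta2, the 1 abundant gene of the muscle and stromal list in fibers, was higher than in WT in LEGSKO+BSO (0.38, edgeR adjusted p = 0.0192) and in LEGSKO (0.39, adjusted p = 0.0345). The photoreceptor gene Pde6b was higher in LEGSKO than in WT (1.18, adjusted p = 0.0392), at 13 to 90 counts per fiber library. The summed retinal list was 34.9 per M counts in LEGSKO Fibers 1. It was 3.37 to 4.55 in the other LEGSKO fiber libraries and 2.10 to 3.90 in WT fibers. A single library thus stood apart, and the sum does not show a rise across the LEGSKO group.

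The response to each condition was also compared between the tissues as an interaction. No member passed in any of the 3 tests, and 0 had an unadjusted p under 0.05, against 13.6%, 10.6% and 9.06% of all genes for LEGSKO+BSO against WT, LEGSKO+BSO against LEGSKO and LEGSKO against WT. The share of all genes called was 0.276% for LEGSKO+BSO against WT, 0.0321% for LEGSKO+BSO against LEGSKO and 0.103% for LEGSKO against WT. The median member difference, fiber response minus epithelial response, was 0.06, 0.16 and -0.09 in the same order. The smallest p belonged to Rpsa for LEGSKO+BSO against LEGSKO (0.28, edgeR adjusted p = 0.539) and to Rps25 for LEGSKO against WT (-0.21, adjusted p = 0.667).

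A few genes of the related lists did pass within a tissue. Of all genes tested, 5.52% were called in LEGSKO+BSO against WT fibers and 1.64% in LEGSKO against WT fibers. In epithelia the shares were 1.17% for LEGSKO+BSO against WT, 0.722% for LEGSKO+BSO against LEGSKO and 0.842% for LEGSKO against WT. The genes below are to be read beside these shares, and no list was tested as a whole. In LEGSKO+BSO against WT fibers, Rps19bp1, a partner of Rps19, was higher by 0.52 (edgeR adjusted p = 0.0299), as were Vim (0.41, adjusted p = 0.0332), the histone-binding biogenesis factor Grwd1 (0.46, adjusted p = 0.037) and the mitochondrial proteins Mrps12 (0.45, adjusted p = 0.0185), Mrpl34 (0.30, adjusted p = 0.0301) and Mrps30 (0.40, adjusted p = 0.0488). These are 3 of the 78 mitochondrial genes, and 3.05% of all genes were called higher in the same comparison. The nucleolar GTPase Gnl2 (-0.31, adjusted p = 0.0443) and the helicase Ascc3 (-0.37, adjusted p = 0.0185) were lower. In LEGSKO against WT fibers Vim was higher (0.49, adjusted p = 0.027), and none passed in LEGSKO+BSO against LEGSKO fibers. In epithelia, Mtor was higher in LEGSKO+BSO than in WT (0.48, adjusted p = 0.021), Max (-0.38, adjusted p = 0.039) and Mrps6 (-0.34, adjusted p = 0.0297) were lower in LEGSKO+BSO than in LEGSKO, and Map3k20, a ribosome stress kinase (0.39, adjusted p = 0.0458), and Mrps6 (0.40, adjusted p = 0.00809) were higher in LEGSKO than in WT. The interaction of LEGSKO+BSO against WT called Mrps12 (0.63, adjusted p = 0.046).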

How the data were processed

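The authors deposited a table of raw counts for 24415 Entrez identifiers in 24 libraries. TopHat, DESeq, bcl2fastq and CASAVA 1.8, and the build mm10 (GRCm38), are named per the submitters' processing notes. How reads were counted, and on which strand, is not given in the sources used here. A RefSeq table of the same build gave symbols for 24334 identifiers, and the other 81 held 0.914% of counts. No libraries of a group were duplicates (chi-square per degree of freedom 5.29 to 348).

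Counts were tested with edgeR 4.0.16 (R 4.3.3): TMM scaling, filterByExpr with a minimum count of 10 and minimum total of 15, two-sided quasi-likelihood F tests and Benjamini-Hochberg adjustment at 0.05. Conditions were compared within a tissue in fits of 12 libraries. Fibers against epithelia, and interactions, used all 24. Libraries of a group varied with a common biological coefficient of 12.8% in fibers, 14.2% in epithelia and 13.7% over both. CPM are TMM scaled. The members and lists were chosen with earlier results of these data known. Members named are the 4 highest and 4 lowest called in a comparison, otherwise the 3 with the smallest p, plus a fixed set and those extreme in level or spread. Of each list, the 2 genes with the smallest adjusted p in WT fibers against epithelia and every called gene of the 6 related lists within a tissue were named, with others chosen after their values were seen. Alternatives were DESeq2 1.42.0, other scalings, no count filter, a replicate block and leaving out each library. Values of 3 genes are not reported here by name.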

Additional observations from a re-analysis of the deposited data

Results flagged for a closer look

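In 60 groups of 4 libraries (member share of all counts, member share outside crystallins, subunit ratio, and CPM of the 7 members printed by library, each in 6 groups), 6 had a library whose gap to its nearest neighbour was, relative to the range of the group, above the 95% limit of Dixon's test for 4 values, which chance passes in about 1 in 20 groups. In LEGSKO+BSO fibers, library 2 was lowest in the ratio of small to large subunit counts, at 0.641, and highest for Rpl22, at 394.9 CPM scaled over both tissues. In the same group, library 4 was lowest for Rps12, at 1564.7 CPM. In WT fibers, library 1 was lowest in the share of counts held by the 76 genes, at 4.65%, and in the subunit ratio, at 0.619, and it was highest for Rpl22, at 440.3 CPM. WT Fibers 1 is also the library in which crystallin genes held 50.1% of counts.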

How the results depend on the processing

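Counts of called members were within 1.5 times of the count given in 201 of 204 alternatives. In LEGSKO+BSO against LEGSKO epithelia, DESeq2 called 1 member (Rpl22, log2 -0.33, adjusted p = 0.0213), and leaving out 1 library at a time gave 0 to 24. In LEGSKO+BSO against WT fibers, DESeq2 called 1 (Rpl34, log2 -0.28, adjusted p = 0.0296). The cause was not tested. Outside crystallins the member share was 10.2%, 10.6% and 9.96% in LEGSKO+BSO, LEGSKO and WT fibers and 2.40% and 2.19% in LEGSKO and WT epithelia. Over the 38 members of lower level it was 2.16%, 2.19% and 2.01% in fibers and 0.580%, 0.675% and 0.604% in epithelia, since fewer genes are summed. Some small medians changed sign: without LEGSKO Fibers 2, LEGSKO against WT fibers gave -0.04 and LEGSKO+BSO against LEGSKO fibers 0.003, with total counts LEGSKO+BSO against WT fibers gave 0.11, and without LEGSKO+BSO Epithelia 4 the interaction of LEGSKO+BSO against WT gave -0.03. With the replicate number as a block, 0 members were called within tissues and in interactions, and 76 between tissues. The deviations of same-numbered libraries had r from -0.27 to 0.27 in epithelia, -0.17 to 0.16 in fibers and -0.05 to 0.19 between the tissues of a condition. Between the tissues, 3 of 12 pairs were over 0.1. Libraries with different numbers were not compared, so these values do not show that pairing is absent. The numbers were not taken to pair libraries. DESeq2 called more genes within tissues than edgeR: 1172 against 742, 80 against 4 and 514 against 220 in fibers, and 580 against 177, 680 against 109 and 463 against 127 in epithelia, for LEGSKO+BSO against WT, LEGSKO+BSO against LEGSKO and LEGSKO against WT. For the interactions it called 293 against 43, 55 against 5 and 83 against 16. Leaving out each library gave 2.92 to 3.14, 2.77 to 2.93 and 2.96 to 3.05 for the median tissue difference in LEGSKO+BSO, LEGSKO and WT. The median SE of a member was 0.11 in epithelia and 0.09 in fibers.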
